A study of Mus musculus with 10 samples.

Results

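The genes examined here encode the proteins of the mitochondrial ribosome. They were found by symbol: every gene whose name is Mrpl or Mrps followed by a digit, after the RefSeq transcript models of the deposited tables had been matched to gene symbols and the models of each gene summed. This gave 78 of the 17606 genes in the tables, 49 named Mrpl and 29 named Mrps, resting on 194 transcript models. By the structure of the mammalian ribosome, 51 belong to the large subunit and 26 to the small subunit. The remaining gene, Mrps36, carries the family name, but its protein has been found in the oxoglutarate dehydrogenase complex of the citric acid cycle. Levels are in FPKM, fragments scaled to transcript length and to the mapped total. How length entered the deposited values is not known, so comparisons of level between genes carry that limit.

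The mitochondrial ribosome sits in the mitochondrial matrix and makes the few proteins that mitochondrial DNA encodes, all of them parts of the respiratory chain and ATP synthase. Its RNAs come from mitochondrial DNA, while all of its proteins are encoded in the nucleus, made in the cytosol and imported. Many of them have bacterial counterparts, and others are found in mitochondria alone. In red cell precursors mitochondria take part in haem synthesis and are removed as the cells mature.

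The libraries came from sorted mouse cells that the labels call EPC, an abbreviation left as given. All donors were wild-type C3H/HeN females bearing tumors of SCC7, a mouse squamous carcinoma line labelled here as a head and neck cancer model, and no tumor-free animals were analysed here. The labels used here do not state animal age, time after injection, pooling or the markers of the sort other than CD45. Organ and CD45, a phosphatase on the surface of leukocytes, set the 3 groups: splenic CD45- (n = 3), splenic CD45+ (n = 3) and tumor CD45+ (n = 4).

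Facts of the libraries bear on every value below. Depth was estimated at 18300000 to 21000000 fragments per library from the smallest step between low values. Globin genes, 12 in number, took 62.8% to 63.8% of the summed FPKM in splenic CD45- libraries, 29.6% to 52.4% in splenic CD45+ and 1.82% to 10.5% in tumor CD45+ libraries. The gate gene Ptprc, which encodes CD45, lay at 1.63 to 2.57, 39.2 to 265.5 and 59.4 to 92.5 FPKM in the same order. The 9 erythroid markers summed to 324789 to 414877, 129020 to 275361 and 5975 to 40797 FPKM. In tumor libraries 3 of them, Epb42, Klf1 and Gata1, stayed below 1 FPKM. The 8 monocyte and macrophage markers summed to 54.8 to 102.3, 1381 to 4044 and 20235 to 40233 FPKM. The 8 granulocyte markers summed to 379.2 to 505.3, 22126 to 73977 and 34.3 to 1678 FPKM. Carcinoma markers (5 genes, of which Krt5 was at 0 in both splenic groups and Krt14 in splenic CD45+) summed to 208.5 to 239.4 FPKM in tumor libraries and to at most 2.10 FPKM in splenic ones. In tumor libraries, Krt5, Krt14, Epcam and Trp63 were each below 1 FPKM. The 4 stroma markers summed to 66.8 to 87.7 FPKM in tumor libraries, where none stayed below 1 FPKM throughout, and to at most 1.30 FPKM in splenic ones, where all 4 did. In such sorted but mixed cells, fewer cells of a type and less RNA per cell cannot be told apart, and the part of other cell types in the changes below was not tested. Tumor libraries 2 and 3 differed by only 1.64 times counting noise (median over genes), against 3.41 to 179.1 times for every other pair of replicates.

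Because a globin transcript counted toward the total lowers every other gene's FPKM, each comparison was made on several scales. The first is the deposited FPKM. On the second, "without globins", the globin genes were left out and the rest of each library was scaled to one fixed sum. On another scale, chosen after seeing the data, FPKM was recalculated without the globin fragments. Their share was estimated from level and transcript length, over the constant that FPKM is scaled to. Where a length was not known, the median globin length was used. The estimate was 52.6% to 57.1% of fragments in splenic CD45- libraries, 17.1% to 40.9% in splenic CD45+ and 0.955% to 6.58% in tumor CD45+. On 3 further scales libraries had a common sum, a common median ratio, or a common median over the 78 genes. A gene called in the same direction on all of them is described below as called on every scale, a rule also set after seeing the data.

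The promoters of these genes are shown first, for 3 of the genes called higher on every scale in tumor libraries against both splenic groups (Mrpl39, Mrpl52 and Mrps15) and for 2 genes that start close to an oppositely read neighbour (Mrps11 and Mrps12). RefSeq promoters of build GRCm38.p6 were matched for 69 of the 78 genes. Each sequence is the gene-free stretch just before the gene's start, read 5′ to 3′ on the gene's strand, with a searched motif in capitals. The Mrpl39 stretch is chr16:84735245-84735494 on the minus strand, and its capitals are GCGCATGC, the NRF1 motif, on both strands, overlapping each other.
Mrpl39: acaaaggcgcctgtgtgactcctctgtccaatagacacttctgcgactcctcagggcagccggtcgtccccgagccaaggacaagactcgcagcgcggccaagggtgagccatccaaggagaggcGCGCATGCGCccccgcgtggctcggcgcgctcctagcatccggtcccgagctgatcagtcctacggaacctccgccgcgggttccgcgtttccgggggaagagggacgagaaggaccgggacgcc
The Mrpl52 stretch is chr14:54426659-54426908 on the plus strand, and its capitals are the ETS family motif CCGGAAG read on the other strand.
Mrpl52: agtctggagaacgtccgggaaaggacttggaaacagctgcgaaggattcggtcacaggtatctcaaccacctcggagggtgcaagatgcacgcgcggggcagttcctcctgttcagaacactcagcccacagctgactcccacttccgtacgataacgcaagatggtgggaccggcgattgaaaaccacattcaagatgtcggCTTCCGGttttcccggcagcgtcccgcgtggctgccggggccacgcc
The Mrps15 stretch is chr4:126046678-126046927 on the plus strand, with the SP1 motif GGGCGG on the other strand at 2 places.
Mrps15: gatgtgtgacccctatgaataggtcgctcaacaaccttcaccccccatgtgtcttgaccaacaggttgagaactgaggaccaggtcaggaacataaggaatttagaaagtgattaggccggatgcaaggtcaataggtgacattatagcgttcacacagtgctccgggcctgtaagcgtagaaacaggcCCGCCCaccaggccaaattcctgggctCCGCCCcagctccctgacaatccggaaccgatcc
The stretch before Mrps11 is chr7:78783090-78783130 on the plus strand. Its 41 bases are all that separates Mrps11 from Mrpl46, which is read the opposite way, and it holds GGGCGG.
Mrps11: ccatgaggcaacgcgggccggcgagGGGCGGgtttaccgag
The stretch before Mrps12 is chr7:28741822-28741956 on the minus strand, between Mrps12 and the oppositely read Sars2, the mitochondrial seryl-tRNA synthetase. It holds GGGCGG on the other strand.
Mrps12: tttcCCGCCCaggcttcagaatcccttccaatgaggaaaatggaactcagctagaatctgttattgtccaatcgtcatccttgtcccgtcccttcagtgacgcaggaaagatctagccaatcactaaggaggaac

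Over the full promoter window of 300 bases, 250 before and 50 after the start, CCGGAAG was found on either strand in 26 of 69 genes (37.7%), against 9.93% of all 27025 genes in the table. AAGATGGC, the YY1 motif, was found in 12 genes (17.4%, against 3.19%), and GCGCATGC in 8 (11.6%, against 3.05%). GGGCGG was found in 34 genes (49.3%, against 38.2%) and the E-box CACGTG in 5 (7.25%, against 8.09%). The shares for the ETS, YY1, NRF1 and SP1 letters were above those of all genes, and the share for the E-box was not. For all genes, these shares and the next were not limited to expressed genes. A gene read the opposite way began within 500 bases of 23 of the 69 starts (33.3%), against 10.9% of all genes. These are matches of letters and positions, with no measurement of binding in these cells.

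All 78 genes were expressed. None was at 0 in any library, 77 reached 1 FPKM in all 10 libraries, and all 78 passed the filter of 1 FPKM in at least 3 of the libraries compared. The exception was Mrpl39, which had 0.85, 0.14 and 1.80 FPKM in the splenic CD45- libraries. Group means ran from 0.93 FPKM (Mrpl39) to 199.5 FPKM (Mrps18c) in splenic CD45- cells, from 3.55 (Mrpl39) to 192.0 (Mrps18c) in splenic CD45+ cells and from 6.58 (Mrpl35) to 390.9 (Mrpl33) in tumor CD45+ cells. Messenger RNAs for parts of one ribosome thus differed in level by 214.5-, 54.0- and 59.4-fold within a group. Means of 100 FPKM or more were seen for 5, 6 and 12 genes in the same order, and means below 10 FPKM for 15, 11 and 3. Transcript lengths were 2294 and 3721 bases for Mrpl39 and Mrpl35, and 638 and 478 bases for Mrps18c and Mrpl33. The part of transcript length in these spreads was not tested. The rank order of the genes was much the same in both splenic groups (Spearman's rho 0.95 across the 78 genes) and less so between splenic CD45- and tumor cells (0.81) and between splenic CD45+ and tumor cells (0.89). Pairs of libraries within a group gave 0.94 to 1.00. These are correlations across genes, which are not replicates, and libraries of a group share their cell makeup and globin load.

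**Figure D1:**
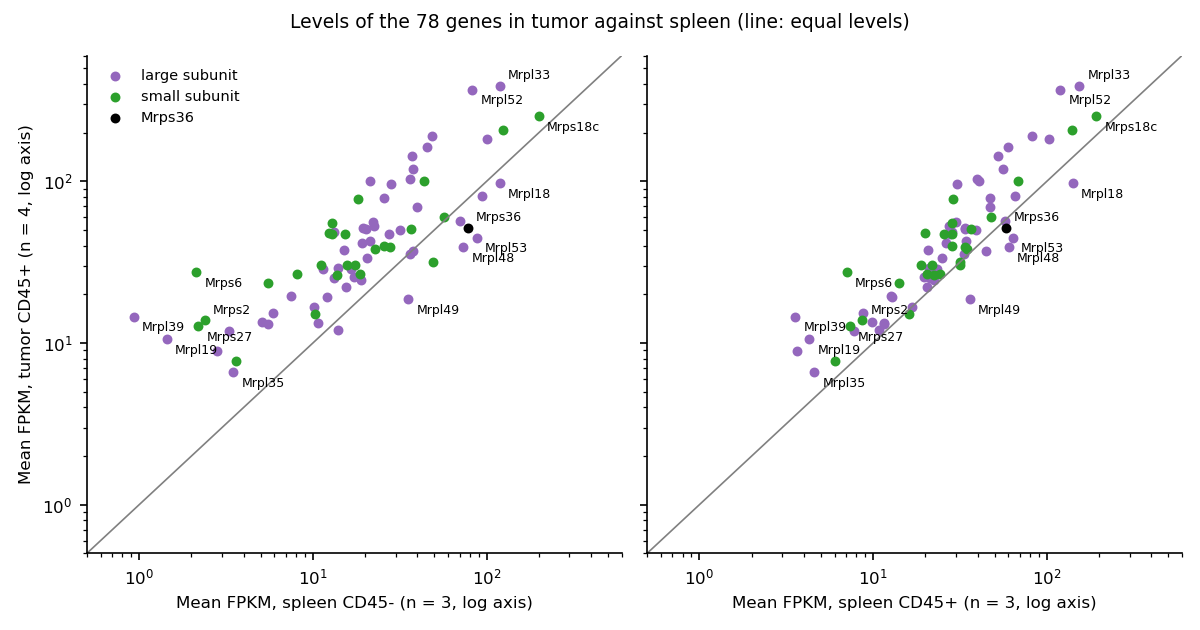
Mean FPKM of each of the 78 genes in tumor CD45+ cells (vertical, n = 4) against splenic CD45- cells (left) and splenic CD45+ cells (right, n = 3 each), both on log axes; purple points are large-subunit genes, green points small-subunit genes and the black point Mrps36. Most points lie above the line of equal levels on this scale, the low genes Mrpl39, Mrps6 and Mrpl19 farthest on the left panel, while Mrpl48, Mrpl49, Mrpl53, Mrps36 and Mrpl18 lie below it in both.

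The summed level of the 78 genes was 2520, 2292 and 2527 FPKM in the splenic CD45- libraries. It was 2397, 4074 and 2319 FPKM in the splenic CD45+ libraries and 5218, 4509, 4585 and 4515 FPKM in the tumor CD45+ libraries. On the deposited scale the tumor libraries stood above all splenic ones. As a share of the FPKM outside globins the genes took 0.511%, 0.485% and 0.526% in splenic CD45-, 0.433%, 0.660% and 0.409% in splenic CD45+, and 0.607%, 0.576%, 0.582% and 0.581% in tumor libraries. Here the tumor libraries stood above the splenic CD45- libraries but not above splenic CD45+ replicate 2. The ratio of summed large- to summed small-subunit FPKM, which the globin share cannot move, was 2.00 to 2.14 in splenic libraries and 2.28 to 2.48 in tumor libraries, with no overlap. High genes weigh most in these sums. The large-subunit genes Mrpl33 and Mrpl52 took means of 4.84% and 3.35% of the summed level of the 78 genes in splenic CD45- libraries. The means were 5.48% and 4.14% in splenic CD45+ and 8.26% and 7.82% in tumor libraries. The part of these genes in the ratio was not tested. The ratio of the 2 subunits' medians was 1.02 to 1.32 in splenic and 1.06 to 1.15 in tumor libraries, which overlap.

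**Figure D2:**
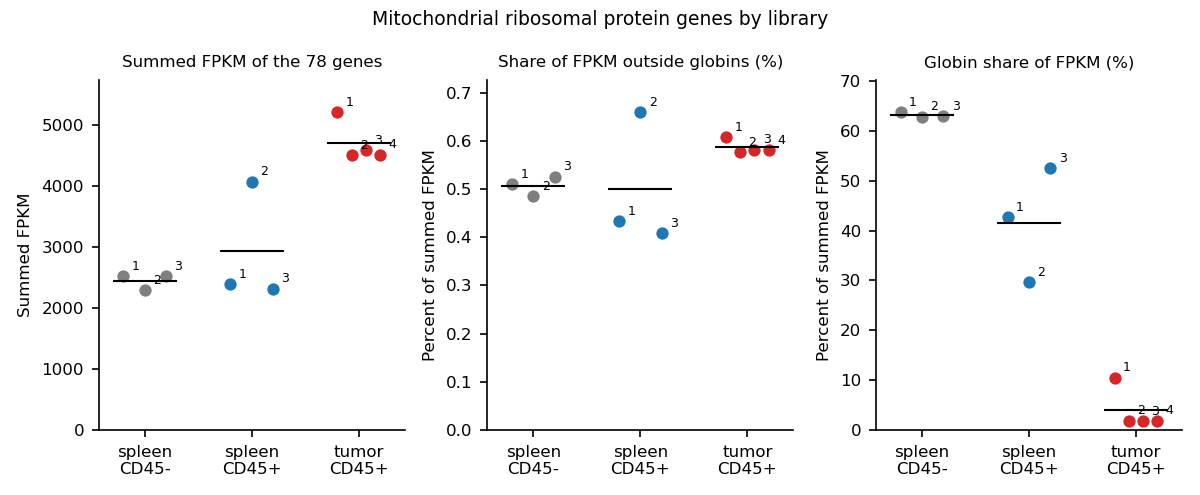
Summed FPKM of the 78 genes (left), their share of the FPKM outside globins (middle) and the globin share of all FPKM (right), 1 point per library numbered by replicate, with group means as lines. Splenic CD45+ replicate 2 stands apart at 4074 FPKM, or 0.660%, with the lowest globin share of its group.

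Splenic CD45+ replicate 2 stood apart in these genes. Its levels were a median 1.62 times those of replicate 1, higher for 76 of 78 genes, and 1.74 times those of replicate 3, higher for all 78, while the median over all genes was 1.03 and 1.18 times. Without globins the ratios were 1.45 and 1.60 for the 78 genes and 0.903 and 1.06 for all genes. The same library had the lowest sums of several leukocyte markers in its group: Ptprc at 39.2 FPKM against 265.5 and 152.9 in replicates 1 and 3, B cell markers at 130.6 against 1172 and 1084, and monocyte and macrophage markers at 1381 against 4044 and 3761. Its erythroid markers were lowest too, at 129020 against 222394 and 275361 FPKM. Its granulocyte markers were not, at 30960 against 22126 and 73977 FPKM. The part of these cells in its higher levels was not tested. Counts of genes called in comparisons with splenic CD45+ cells are also given without this library, an alternative extended to all genes and to lists after seeing the data, and single changes where it decides a call.

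In splenic CD45+ against splenic CD45- cells, which share the organ and differ in the gate, 23 of the 78 genes were called higher and 0 lower on the deposited scale (limma, adjusted p below 0.05; at an unadjusted p, 25 and 1). Of all 9728 genes tested, 50.5% were called higher and 5.01% lower. Of the 78 genes 29.5% were called higher, and their median log2 change was 0.44 against 0.67 over all genes. Without globins 15 were called higher and 3 lower, where 41.5% and 9.17% of all genes were called, with medians of 0.19 and 0.47. Without globin fragments 5 were higher and 14 lower, where 31.8% and 19.5% of all genes were called, with medians of -0.17 and 0.13. On each of these 3 scales the median of the 78 genes lay below that of all genes.

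On the deposited scale 12 of 26 small-subunit genes (46.2%) and 11 of 51 large-subunit genes (21.6%) were called higher, both below the 50.5% of all genes. Without globin fragments 4 small-subunit genes were higher and 3 lower, and 1 large-subunit gene was higher and 10 lower. Of all genes, 31.8% were then higher and 19.5% lower. On the deposited scale the 3 genes with the smallest adjusted p were all of the small subunit. Mrps27 (chromosome 13, 99344767 to 99415562), a small-subunit protein with RNA-binding repeats that is found in mitochondria alone, had 2.54, 1.97 and 2.04 FPKM in splenic CD45- libraries and 7.42, 8.20 and 6.36 FPKM in splenic CD45+ libraries. All CD45+ values were above all CD45- values, a log2 change of 1.39 ± 0.20 (SE, adjusted p = 0.00174, limma). Mrps2 (chromosome 2, 28465951 to 28471177), the counterpart of a bacterial small-subunit protein, had 2.53, 2.63 and 1.98 against 7.82, 11.67 and 6.39 FPKM. It rose by 1.48 ± 0.25 (adjusted p = 0.00288). These 2 were the only members called higher on every scale, where the same rule called 12.7% of all genes higher and 1.19% lower. It called 0 of the 78 lower, also at an unadjusted p. No call on every scale was left without any 1 of the 3 splenic CD45- libraries, 1 was left without CD45+ replicate 1 or 3, and without CD45+ replicate 2 there were 4 higher and 6 lower, where 21.6% and 7.98% of all genes were called.

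Mrps6 rose too on the deposited scale (1.38 ± 0.22, adjusted p = 0.00240), from 1.74, 2.86 and 1.77 to 7.34, 7.65 and 6.17 FPKM, as did Mrpl19 (1.11 ± 0.19, adjusted p = 0.00297) and Mrps35 (1.19 ± 0.21, adjusted p = 0.00300). All 3 stayed called without globins. At the other end Mrps11, Mrpl20 and Mrpl53 were not called on the deposited scale and were called lower without globins. Mrps11, whose bacterial counterpart lies on the platform of the small subunit, had 58.1, 46.6 and 43.3 FPKM in CD45- and 26.2, 45.8 and 22.7 FPKM in CD45+ libraries, which overlap. Its log2 change was -0.95 ± 0.26 without globins (adjusted p = 0.0184) and -0.68 ± 0.29 on the deposited scale (adjusted p = 0.0795). Without splenic CD45+ replicate 2, 11 of the 78 genes were called lower and 24 higher on the deposited scale, where 17.5% and 46.1% of all genes were called. Without globins as well, 16 were lower and 16 higher, beside 23.3% and 36.9% of all genes. Mrps11, Mrpl20, Mrpl53 and Mrps36 were then called lower on the deposited scale, with log2 changes of -0.98, -0.90, -0.95 and -0.96 (adjusted p = 3.75e-04, 2.77e-04, 1.11e-04 and 1.91e-04, limma), and Mrpl10 was called higher (0.53, adjusted p = 0.0274). Leaving out any splenic CD45- library reduced the count of higher genes to 11 or 12.

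In tumor CD45+ against splenic CD45+ cells, which share the gate and differ in tissue, 43 of the 78 genes were called higher and 1 lower on the deposited scale, or 55.1% and 1.28%. Of all genes tested, 37.7% were called higher and 26.0% lower. The median log2 change was 0.56 against 0.20 over all genes. Without globins 17 were higher and 4 lower, where 25.9% and 37.2% of all genes were called, with medians of 0.10 and -0.21. Without globin fragments 20 were higher and 5 lower, where 26.0% and 39.1% were called, with medians of 0.11 and -0.20. On each of these 3 scales the median of the 78 genes lay above that of all genes. Without splenic CD45+ replicate 2, 70 of the 78 (89.7%) were called higher on the deposited scale and 1 (1.28%) lower, where 45.3% and 26.9% of all genes were called. Without globins as well, 34 were higher and 4 lower, beside 29.1% and 40.3% of all genes.

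On every scale 17 of the 78 were called higher (21.8%, beside 20.8% of all genes) and 0 lower (beside 17.1%; 0 also at an unadjusted p). The 17 were Mrpl12, Mrpl13, Mrpl14, Mrpl17, Mrpl19, Mrpl23, Mrpl27, Mrpl33, Mrpl39, Mrpl42, Mrpl52, Mrpl54, Mrps6, Mrps10, Mrps15, Mrps26 and Mrps33, of which 12 belong to the large and 5 to the small subunit. Leaving out 1 library at a time gave 14 to 23 higher and at most 1 lower, with the 23 coming without splenic CD45+ replicate 2, where 24.5% of all genes were called higher and 14.2% lower. Their transcripts had a median length of 937 bases against 1339 for the other 61 genes. The rank correlation of change with transcript length was -0.18 across the 78 genes without globins and -0.19 across all genes, a description with no test.

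Mrps6 (chromosome 16, 92058336 to 92112227), a small-subunit protein with a bacterial counterpart, showed the smallest adjusted p in this comparison. It had 7.34, 7.65 and 6.17 FPKM in splenic CD45+ and 28.9, 26.5, 30.2 and 23.9 FPKM in tumor libraries. The groups did not overlap, with a log2 change of 1.82 ± 0.15 (adjusted p = 3.36e-05) and of 1.41 ± 0.15 without globins (adjusted p = 1.46e-04). The gene Slc5a3, a myo-inositol transporter, overlaps Mrps6 and had 0.247 ± 0.133 FPKM (SD, n = 3) in splenic CD45+ and 1.90 ± 0.283 FPKM (SD, n = 4) in tumor libraries. The sources do not say whether strand was used in counting, so reads of genes that overlap cannot be told apart.

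Mrps33, a small-subunit protein found in mitochondria alone, had 26.9, 32.3 and 27.7 FPKM in splenic CD45+ and 88.4, 76.0, 72.5 and 74.8 FPKM in tumor libraries, with no overlap (1.40 ± 0.14, adjusted p = 1.01e-04). Mrpl27, counterpart of a bacterial large-subunit protein near the peptidyl transferase centre, had 25.5, 41.0 and 24.6 against 107.4, 86.4, 94.6 and 96.2 FPKM (1.66 ± 0.20, adjusted p = 2.62e-04). Mrpl52, a large-subunit protein found in mitochondria alone, had 100.3, 157.6 and 101.5 against 429.4, 355.8, 365.2 and 325.2 FPKM (1.64 ± 0.20, adjusted p = 2.73e-04). In each of these the lowest tumor library was above the highest splenic one, and without globins the rise was 0.95 ± 0.13, 1.21 ± 0.18 and 1.17 ± 0.17. Mrpl19 rose from 4.30, 4.87 and 3.70 to 11.0, 10.9, 10.1 and 10.3 FPKM (1.13 ± 0.14, adjusted p = 2.81e-04).

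Mrpl49 (chromosome 19, 6053630 to 6057755), a large-subunit protein found in mitochondria alone, was the only gene called lower on the deposited scale. It had 28.4, 56.1 and 23.7 FPKM in splenic CD45+ libraries and 16.3, 19.5, 18.5 and 20.1 FPKM in tumor libraries. All tumor values were below all splenic ones, a log2 change of -0.82 ± 0.28 (adjusted p = 0.0337) and of -1.29 ± 0.27 without globins (adjusted p = 0.00414). The call on the deposited scale ended when any 1 tumor library was left out, and without splenic CD45+ replicate 2 the change was -0.46 (adjusted p = 0.0137). Without globins Mrpl48 (-0.95 ± 0.28, adjusted p = 0.0181), Mrpl18 (-0.88 ± 0.27, adjusted p = 0.0212) and Mrpl53 (-0.86 ± 0.27, adjusted p = 0.0231) were called lower too.

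**Figure D3:**
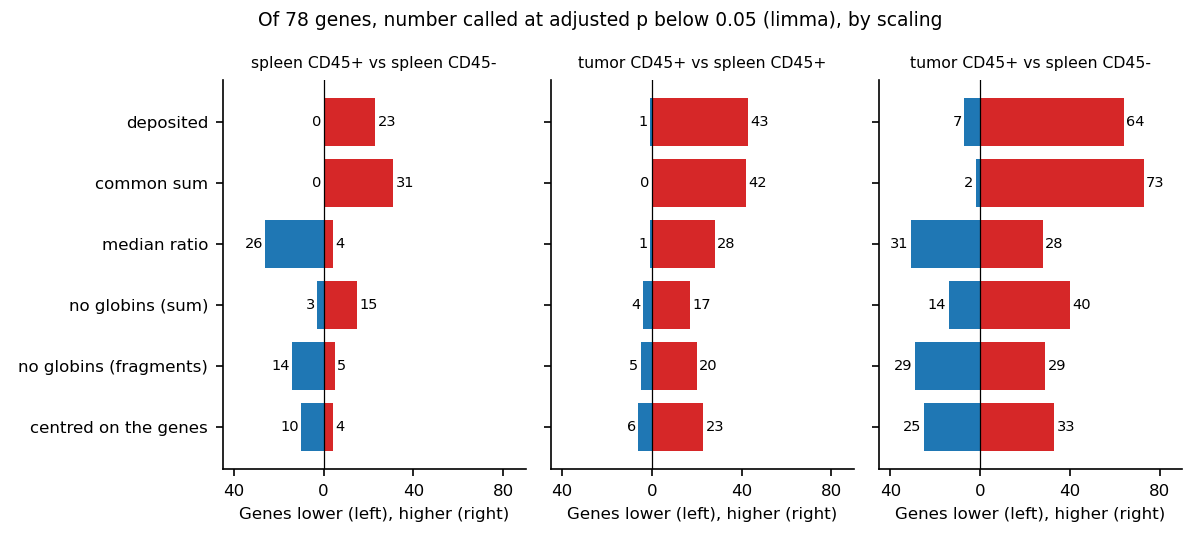
Number of the 78 genes called higher (red, right) and lower (blue, left) at a limma adjusted p below 0.05 in each comparison, by scaling of the libraries. In splenic CD45+ against CD45- cells the balance runs from 31 higher and 0 lower to 4 higher and 26 lower, whereas in tumor against splenic CD45+ cells more genes were higher than lower on each of the 6 scales. Shares of all genes are not drawn, so shifts common to all genes enter these counts.

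Tumor CD45+ against splenic CD45- cells differ in tissue and gate together, and this comparison shares its libraries with the other 2. On the deposited scale 64 of the 78 genes were higher (82.1%, beside 67.5% of all genes) and 7 lower (8.97%, beside 22.5%), with a median log2 change of 0.99 against 1.06 over all genes. Without globins 40 were higher and 14 lower, where 54.1% and 33.7% of all genes were called, with medians of 0.33 and 0.55. Without globin fragments the counts were 29 and 29, where 49.2% and 40.7% were called, with medians of -0.01 and 0.23. On every scale 28 of the 78 were higher (35.9%, beside 43.4% of all genes) and 2 lower (2.56%, beside 14.4%). The balance of higher and lower genes therefore depended on the scale. Log2 changes of single genes ran from -0.96 to 3.20 on the deposited scale and from -1.70 to 2.90 without globins.

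Of the 15 genes below 10 FPKM in splenic CD45- cells, 10 were called higher on every scale, and the splenic CD45- level enters both numbers. The same rule called 43.4% of all genes of any level higher. The share among all genes equally low in splenic CD45- cells was not computed, so the count does not set these members apart. Mrpl39 (chromosome 16, 84718281 to 84735244), a large-subunit protein found in mitochondria alone, had 0.85, 0.14 and 1.80 FPKM in splenic CD45-, 2.12, 7.38 and 1.16 in splenic CD45+ and 14.3, 15.6, 14.3 and 14.1 FPKM in tumor libraries. Tumor values did not overlap with either splenic group, and the splenic groups overlapped with each other. Its log2 change against splenic CD45- cells was 3.10 ± 0.25 (adjusted p = 2.25e-06), and 2.90 ± 0.36 without globins. Mrps6 rose by 3.20 ± 0.14 (adjusted p = 2.82e-08), 12.9-fold in the mean and 7.72-fold without globins. Mrpl19 had 1.32, 1.60 and 1.40 FPKM in splenic CD45- libraries and rose by 2.25 ± 0.08 (adjusted p = 5.86e-09). Mrps27 reached 12.9, 13.1, 13.3 and 11.7 FPKM in tumor libraries (2.11 ± 0.09, adjusted p = 2.54e-08) and Mrps2 12.3, 14.7, 15.0 and 13.7 FPKM (2.14 ± 0.10, adjusted p = 5.56e-08). For both genes the splenic CD45+ values lay between the other groups with no overlap on the deposited scale.

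Other genes rose as well. Mrps35, also below 10 FPKM in splenic CD45- cells, went from 5.29, 5.46 and 5.91 to 24.96, 23.4, 22.2 and 23.5 FPKM (1.90 ± 0.08, adjusted p = 1.54e-08). Mrps15, counterpart of a bacterial small-subunit protein, went from 11.7, 13.0 and 13.7 to 52.0, 55.5, 54.9 and 58.8 FPKM (2.03 ± 0.08, adjusted p = 1.65e-08). Mrpl13, a large-subunit protein with a bacterial counterpart, went from 44.9, 44.1 and 47.8 to 152.5, 159.1, 165.9 and 170.7 FPKM (1.81 ± 0.08, adjusted p = 2.19e-08). Without globins these changes were 1.28 ± 0.09, 1.35 ± 0.11 and 1.09 ± 0.09. All 3 were among the 28 called higher on every scale. The other such genes, beside Mrpl39, Mrps6, Mrpl19, Mrps27 and Mrps2, were Mrpl3, Mrpl12, Mrpl14, Mrpl15, Mrpl17, Mrpl23, Mrpl24, Mrpl27, Mrpl33, Mrpl36, Mrpl42, Mrpl45, Mrpl52, Mrpl54, Mrps9, Mrps10, Mrps18b, Mrps23, Mrps26 and Mrps33. Mrpl45 encodes the protein that tethers the ribosome to the inner membrane. Without 1 library at a time, 21 to 27 genes were higher and 1 or 2 lower on every scale.

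**Figure D4:**
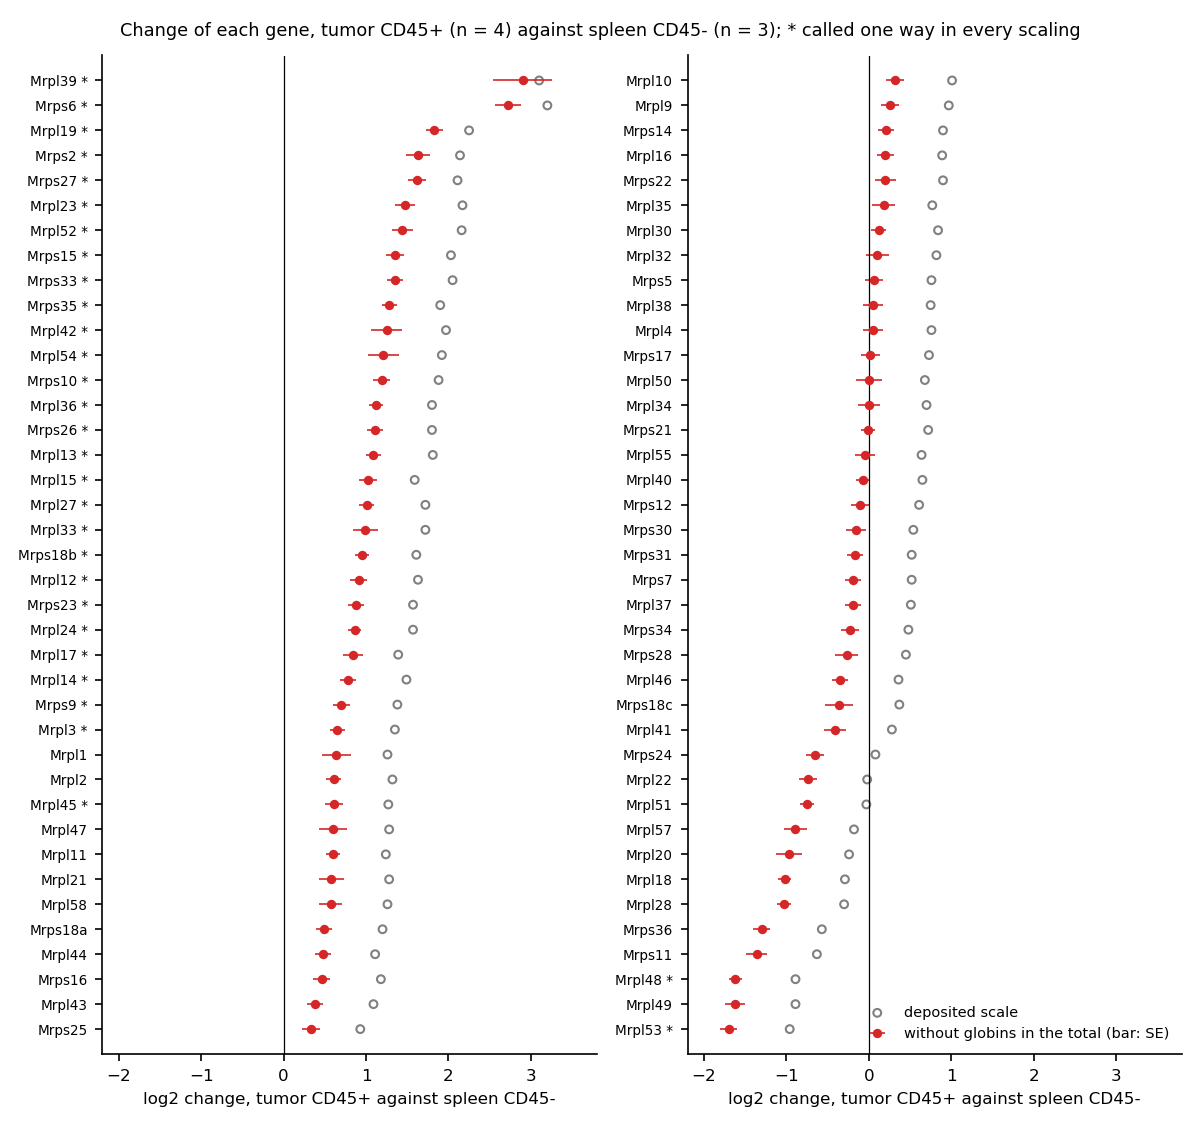
Log2 change of each of the 78 genes in tumor CD45+ (n = 4) against splenic CD45- cells (n = 3), in order of the change without globins (red points, bars are SE), with the deposited scale as open circles; an asterisk marks the 28 genes called higher and the 2 called lower on every scale. Without globins the points lie farther left, with Mrpl39 (2.90) and Mrps6 (2.72) at the top and Mrpl53 (-1.70), Mrpl48 and Mrpl49 at the bottom.

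The 2 genes lower on every scale were Mrpl48 and Mrpl53, both large-subunit proteins found in mitochondria alone. Mrpl48 (chromosome 7, 100545779 to 100608301) had 71.1, 71.9 and 77.3 FPKM in splenic CD45-, 39.1, 98.0 and 43.4 in splenic CD45+ and 44.7, 36.6, 37.7 and 37.8 FPKM in tumor libraries. Tumor values lay below all splenic CD45- values, and splenic CD45+ values spanned both groups. The log2 change against splenic CD45- cells was -0.89 ± 0.09 (adjusted p = 1.07e-05) and -1.62 ± 0.08 without globins. Mrpl53 (chromosome 6, 83109108 to 83109932) had 91.9, 85.1 and 86.1, then 44.7, 100.9 and 45.1, then 51.0, 44.7, 37.5 and 45.6 FPKM in the same groups. Its change was -0.96 ± 0.11 (adjusted p = 2.00e-05), again with no overlap between tumor and splenic CD45- libraries. Mrpl49 showed -0.89 ± 0.09 (adjusted p = 1.49e-05), Mrps36 -0.57 ± 0.09 (adjusted p = 2.18e-04) and Mrps11 -0.63 ± 0.14 (adjusted p = 0.00238) on the deposited scale. Mrpl18 and Mrpl28 completed the 7, Mrpl18 with 116.9, 116.6 and 124.4 FPKM against 99.9, 95.4, 98.2 and 95.2 FPKM (-0.29 ± 0.07, adjusted p = 0.00342). Scaling libraries to a common sum turned the change of Mrpl18 (0.35) and Mrps36 (0.07) around, and that of Mrps11 became 0.00.

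Several of these genes overlap another gene, as do 25 of the 78, 20 of them a protein-coding one. Mrpl48 overlaps Rab6a, which encodes a Golgi GTPase and which stood at 74.1 ± 3.19 FPKM in splenic CD45- and 34.9 ± 2.78 in tumor cells (SD, n = 3 and 4). Mrpl18 overlaps Tcp1, a chaperonin subunit, at 83.7 ± 9.69 and 154.0 ± 12.7 FPKM. Mrpl53 overlaps Ccdc142 (1.55 ± 0.221 and 1.49 ± 0.227 FPKM) and Mrpl49 overlaps Syvn1, an endoplasmic reticulum ubiquitin ligase (11.1 ± 0.947 and 9.72 ± 0.898 FPKM). Means of Mrpl48 and Rab6a were both lower in tumor cells, whereas Mrpl18 was lower and Tcp1 higher there, with no test made for these neighbours. Mrpl23, Mrpl27, Mrpl48 and Mrps36 have pseudogene copies in the RefSeq table, which makes their values uncertain where reads match a copy.

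**Figure D5:**
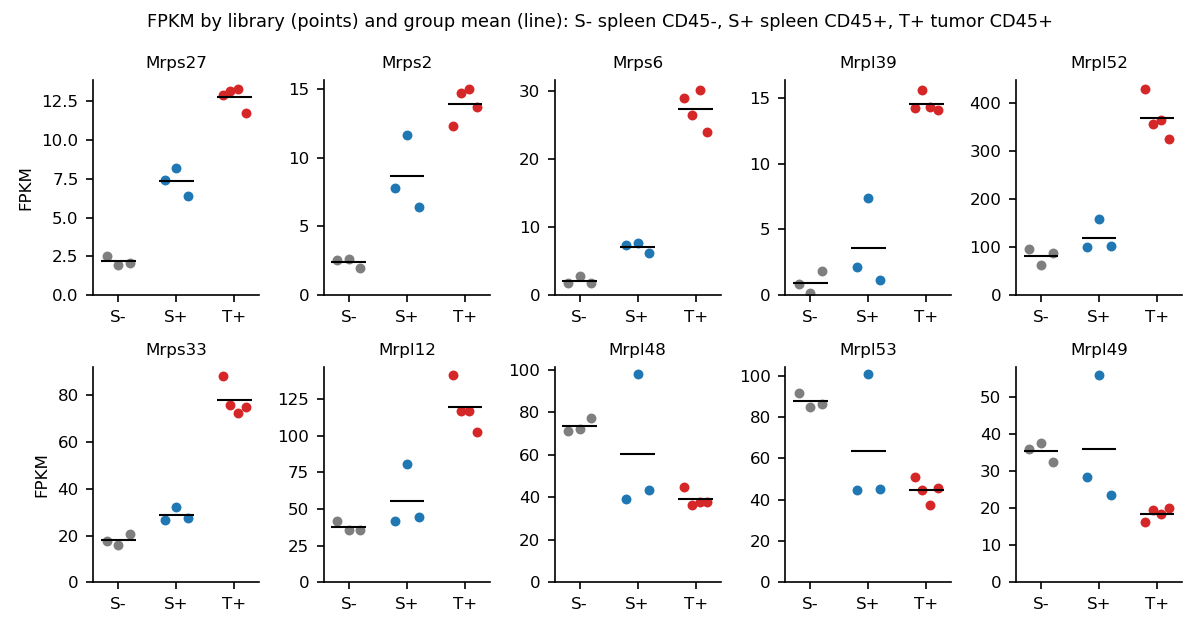
FPKM of 10 genes in every library (points) with group means (lines), on linear axes from 0. Mrps27, Mrps2 and Mrps6 form 3 steps with no overlap between groups, and Mrpl39, Mrpl52, Mrps33 and Mrpl12 are high in all 4 tumor libraries. Mrpl49 is lowest in tumor libraries. Mrpl48 and Mrpl53 are lower there than in splenic CD45- libraries but overlap splenic CD45+ replicates 1 and 3. Splenic CD45+ replicate 2 is highest of all libraries in Mrpl48, Mrpl53 and Mrpl49.

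Mrps11 and Mrpl46 are read head to head, with starts 42 bases apart, and their ratio differed between groups. Mrpl46, a large-subunit protein, had 18.0, 19.6 and 19.1 FPKM in splenic CD45-, 16.9, 32.9 and 17.4 in splenic CD45+ and 26.2, 22.1, 26.8 and 23.4 FPKM in tumor libraries. The ratio of Mrps11 to Mrpl46, which no scaling of a library can change, was 3.23, 2.38 and 2.27 in splenic CD45- libraries, 1.55, 1.39 and 1.31 in splenic CD45+ libraries and 1.40, 1.45, 1.20 and 1.09 in tumor libraries. Splenic CD45- libraries stood above all others, and the 2 CD45+ groups overlapped. The pair was singled out after its values were seen, so the ratio is given without a test. Mrps12 and its neighbour Sars2 differed in level, with Sars2 at 6.60 ± 0.638 (SD, n = 3), 6.17 ± 2.34 (n = 3) and 7.16 ± 1.09 FPKM (n = 4) in the 3 groups.

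Members with known special places in the ribosome were read by name. Mrpl12 forms the stalk that recruits translation factors and also binds the mitochondrial RNA polymerase. It had 41.9, 35.5 and 35.9 FPKM in splenic CD45-, 41.8, 80.9 and 44.7 in splenic CD45+ and 141.5, 117.0, 116.7 and 102.8 FPKM in tumor libraries. Tumor values were above all others, with log2 changes of 1.63 ± 0.12 against splenic CD45- (adjusted p = 9.70e-07) and 1.14 ± 0.25 against splenic CD45+ cells (adjusted p = 0.00472). Both calls held on every scale, whereas the change between the splenic groups (0.49 ± 0.28, adjusted p = 0.171) did not pass. Mrpl10, the base of that stalk, had 15.5, 14.5 and 11.8, then 23.8, 21.7 and 17.7, then 29.1, 28.9, 30.1 and 27.6 FPKM. Its 3 groups did not overlap on the deposited scale, but its changes in tumor libraries without globins were 0.32 ± 0.11 against splenic CD45- (adjusted p = 0.0195) and -0.00 ± 0.16 against splenic CD45+ cells (adjusted p = 0.994).

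Mrps12, the counterpart of the bacterial decoding-centre protein, had 30.3, 21.9 and 25.2, then 26.1, 34.9 and 23.9, then 44.8, 37.9, 40.4 and 35.1 FPKM. It was called higher in tumor than in splenic CD45- cells on the deposited scale (0.61 ± 0.12, adjusted p = 0.00136), and its change was -0.11 ± 0.11 without globins (adjusted p = 0.386). Mrps30, found in the large subunit despite its name, behaved likewise (0.54 ± 0.11, adjusted p = 0.00151, and -0.16 ± 0.12, adjusted p = 0.224, without globins). Mrpl41 had 10.5, 9.54 and 11.9 FPKM in splenic CD45- and 17.0, 11.3, 12.9 and 11.8 FPKM in tumor libraries, which overlap (0.28 ± 0.14, adjusted p = 0.0877), and was called lower without globins (-0.41 ± 0.13, adjusted p = 0.0136). Mrpl58, a peptidyl-tRNA hydrolase built into the large subunit, rose by 1.26 ± 0.15 against splenic CD45- cells (adjusted p = 3.47e-05) and by 0.57 ± 0.14 without globins (adjusted p = 0.00384). Mrps36 fell by 1.30 ± 0.10 on the log2 scale in tumor against splenic CD45- cells without globins (adjusted p = 1.47e-06), but its change against splenic CD45+ cells did not pass (-0.49 ± 0.28, adjusted p = 0.162). Without splenic CD45+ replicate 2 that change, on the deposited scale, was 0.39 (adjusted p = 0.00610), a call higher.

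Mammals have 3 relatives of 1 bacterial protein, bS18, and their calls are given side by side. Mrps18c, which keeps the bacterial place in the small subunit, was the highest gene in both splenic groups, with 171.3, 163.0 and 264.1 FPKM in splenic CD45-, 136.6, 289.5 and 149.9 in splenic CD45+ and 287.9, 219.6, 229.0 and 275.5 FPKM in tumor libraries. These overlapped, and neither tumor comparison passed on the deposited scale (0.37 ± 0.18, adjusted p = 0.0825, against splenic CD45-). Without splenic CD45+ replicate 2 Mrps18c was called higher in tumor than in splenic CD45+ cells (0.81, adjusted p = 0.00149), as were Mrps18b (0.82), Mrps30 (0.59), Mrpl41 (0.57) and Mrpl35 (0.98), which did not pass with it. Mrps18b had 8.46, 8.22 and 7.47, then 15.6, 32.1 and 13.8, then 28.1, 26.3, 26.5 and 25.6 FPKM, and was called higher against splenic CD45- cells in tumor (1.61 ± 0.08, adjusted p = 4.60e-08) and in splenic CD45+ libraries (1.15 ± 0.32, adjusted p = 0.0176). Mrps18a, which sits in the large subunit, had 24.8, 20.5 and 22.5, then 27.7, 36.8 and 17.9, then 55.6, 55.2, 55.0 and 46.2 FPKM. It rose in tumor against both splenic groups on the deposited scale (1.20 ± 0.10, adjusted p = 2.53e-06, and 0.98 ± 0.24, adjusted p = 0.00776). Without globins the second of these no longer passed (0.52 ± 0.22, adjusted p = 0.0726). Without globin fragments Mrps18c was called lower in tumor than in splenic CD45- cells (-0.72 ± 0.19, adjusted p = 0.00466).

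Other proteins and factors of mitochondrial translation were read from lists. Counts are on the deposited scale unless stated, to be read beside the 50.5%, 37.7% and 67.5% of all genes called higher and the 5.01%, 26.0% and 22.5% called lower. Without globins these shares were 41.5%, 25.9% and 54.1% higher and 9.17%, 37.2% and 33.7% lower. The 5 mitoribosomal proteins named otherwise gave 1, 1 and 2 genes called higher and 0, 0 and 1 lower in splenic CD45+ against CD45-, tumor against splenic CD45+, and tumor against splenic CD45- cells, in this order here and below. Without globins they gave 0, 1 and 0 higher and 1, 2 and 3 lower. Dap3, a GTP-binding small-subunit protein, had means of 51.9 ± 4.53, 52.9 ± 27.6 and 54.1 ± 2.48 FPKM (SD, n = 3, 3 and 4) and passed in none of the 3 on the deposited scale. Without globins it was called lower in tumor than in splenic CD45- cells (-0.66 ± 0.09, adjusted p = 1.05e-04). Chchd1 rose in tumor against splenic CD45+ cells (1.11 ± 0.25, adjusted p = 0.00572). Of 25 tested assembly and rRNA-modifying factors, 13, 7 and 18 were higher and 0, 1 and 2 lower. Without globins 11, 1 and 14 were higher and 1, 7 and 8 lower, so the balance in tumor against splenic CD45+ cells turned. Rbfa, a small-subunit assembly factor, rose from 8.13 ± 0.407 to 37.3 ± 0.613 FPKM between splenic CD45- and tumor cells (2.07 ± 0.07, adjusted p = 4.78e-09). Mrm1, which methylates the large ribosomal RNA, fell from 19.4 ± 0.406 to 4.04 ± 0.213 FPKM (-2.02 ± 0.07, adjusted p = 7.55e-09).

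Of 16 tested translation factors, 7, 3 and 12 were higher and 0, 3 and 1 lower, and without globins 3, 1 and 7 were higher and 0, 6 and 4 lower. Tufm, the elongation factor that brings tRNA to the ribosome, had 15.8 ± 2.31, 30.3 ± 10.5 and 41.3 ± 1.58 FPKM and rose in tumor against splenic CD45- cells (1.34 ± 0.10, adjusted p = 1.12e-06). Of 20 mitochondrial aminoacyl-tRNA synthetases, 10, 0 and 14 were higher and 0, 3 and 2 lower, and without globins 10, 0 and 9 were higher and 0, 7 and 7 lower. Qrsl1 rose in tumor against splenic CD45- cells (1.61 ± 0.09, adjusted p = 2.14e-07). Of genes for mitochondrial DNA transcription and copying, 8 of 9, 3 of 10 and 9 of 10 were higher and 0, 1 and 1 lower. Without globins 6, 2 and 8 were higher and 0, 3 and 1 lower, so the balance in tumor against splenic CD45+ cells turned here too. Tfam, which packs and transcribes mitochondrial DNA, had 4.80 ± 0.566, 12.0 ± 2.31 and 9.14 ± 0.640 FPKM, and Polrmt, the RNA polymerase, 1.70 ± 0.299, 4.52 ± 0.695 and 4.92 ± 0.473 FPKM. Both rose between the splenic groups (1.16 ± 0.21, adjusted p = 0.00361, and 1.03 ± 0.21, adjusted p = 0.00495).

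Among 8 tested nuclear regulators of mitochondrial genes, 3, 1 and 3 were higher and 0, 4 and 5 lower, and without globins 3, 0 and 2 were higher and 1, 6 and 5 lower. Without splenic CD45+ replicate 2 the lists above gave, in the same order and on the deposited scale, 1, 15, 7, 9, 8 and 3 genes higher and 3, 3, 0, 1, 0 and 1 lower in splenic CD45+ against CD45- cells, where 5, 25, 15, 18, 8 and 8 were tested. In tumor against splenic CD45+ cells they gave 3, 9, 7, 5, 4 and 1 higher and 1, 1, 2, 3, 1 and 5 lower. Of all genes, 46.1% and 45.3% were then higher and 17.5% and 26.9% lower in these comparisons, in order. Without globins too, the first gave 0, 13, 3, 8, 6 and 3 higher and 3, 4, 1, 2, 0 and 1 lower. The second gave 1, 2, 3, 0, 2 and 0 higher and 2, 5, 6, 9, 4 and 7 lower. In every list but the regulators the balance of the second thus turned. Shares of all genes were 36.9% and 29.1% higher and 23.3% and 40.3% lower. Transcripts of Nrf1, whose motif stands before Mrpl39, were at 46.5 ± 0.737, 36.4 ± 11.2 and 11.9 ± 0.329 FPKM and fell in tumor against splenic CD45- cells (-1.88 ± 0.07, adjusted p = 6.80e-09). Gabpb2, a partner of the ETS factor GABPA, fell in tumor against splenic CD45+ cells (-2.43 ± 0.27, adjusted p = 1.60e-04). Esrra rose from 1.11 ± 0.323 to 21.1 ± 0.531 FPKM between splenic CD45- and tumor cells (3.40 ± 0.11, adjusted p = 2.99e-09), and Myc rose between the splenic groups (3.10 ± 0.36, adjusted p = 0.00104), from 2.78 ± 0.374 to 34.1 ± 16.6 FPKM. Transcript levels of these regulators say nothing of their binding at the promoters shown.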

How the data were processed

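RNA was sequenced from 10 libraries of sorted cells. Per the labels' protocols, a company extracted total RNA with TRIZOL and prepared the libraries. The kit, strand, aligner, quantifier and annotation were not given in the sources used here. Per the submitters' processing notes, the genome build was GRCm38.p6. The authors deposited 1 value for each of 61685 RefSeq models, of which 1843 were numbered copies. The files carry no unit, and the deposited values were taken for FPKM because their length-weighted sums lay between 971633 and 1174331, near the constant that FPKM is scaled to. These sums are partial, as they cover only the 24850 models of known length. Models with a symbol (60177) were summed into 17606 genes; the other 1508 held 0.425% to 1.06% of FPKM. Gene coordinates and promoters came from RefSeq.

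Each comparison was fitted on log2(FPKM + 1) with limma 3.58.1 (lmFit, eBayes with trend; R 4.3.3), using the libraries of the 2 groups alone and every gene that reached 1 FPKM in 3 or more of them. Fold changes are on that scale, which understates the change of low genes, and adjusted p-values are Benjamini-Hochberg over all genes tested. SE is the standard error of the log2 change. The test was checked on simulated data, but no outcome is given here, so that check lends the calls no support. Spread differed between the groups on the deposited scale. The median SD of the mitoribosomal genes, in percent of the mean, was 11% (splenic CD45-), 31.6% (splenic CD45+) and 8.51% (tumor CD45+). How the fit behaves under such unequal spread was not tested. Figures were made with Python 3.11.15, pandas 2.3.3 and matplotlib 3.10.9. Named genes were those with the smallest adjusted p in each direction in each comparison (5 on the deposited scale, 3 without globins), the highest and lowest in each group, and 10 of known role; list genes were the 1 with the smallest adjusted p in each direction, plus Tfam, Polrmt, Tufm and Dap3. A list gene that this rule names is not reported here. Other genes are named only in full lists, beside overlapping neighbours or as singled out after their values were seen. The genes and lists were chosen with earlier results of these data known. The labels do not say that replicates came from separate mice, so each p-value reflects the scatter of these libraries alone, part or all of which may be technical. Other scalings, pseudocounts, filters, models and left-out libraries were tried as alternatives.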

Additional observations from a re-analysis of the deposited data

Results flagged for a closer look

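Among the tumor CD45+ libraries, the only group large enough for the test of 1 library against the rest, 4 of 30 values examined had 1 library far from the others by Dixon's ratio, where chance gives about 1 in 20. The summed level of the 78 genes was 5218 FPKM in tumor replicate 1 and 4509 to 4585 FPKM in the other 3. Mrpl33 stood at 491.1 FPKM in replicate 1 against 352.9 to 361.0 FPKM. Mrpl48 stood at 44.7 FPKM in replicate 1 against 36.6 to 37.8 FPKM. Mrps18a stood at 46.2 FPKM in replicate 4 against 55.0 to 55.6 FPKM. Tumor replicate 1 also had a globin share of 10.5% against 1.82% to 1.89%, granulocyte markers at 1678 FPKM against 34.3 to 39.8 FPKM and monocyte and macrophage markers at 40233 FPKM against 20235 to 25116 FPKM, and the part of these in its values was not tested.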

How the results depend on the processing

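Each count in the 3 comparisons moved by over 1.5 times under at least 1 alternative, and the cause was not tested. Counts follow as higher and lower for splenic CD45+ against CD45-, tumor against splenic CD45+ and tumor against splenic CD45- cells. They were 15 and 3, 17 and 4, 40 and 14 without globins. They were 5 and 14, 20 and 5, 29 and 29 without globin fragments, a scale added after seeing the data. Median ratios gave 4 and 26, 28 and 1, 28 and 31, and centring on the 78 genes 4 and 10, 23 and 6, 33 and 25. Of all genes, centring called 1316 higher and 1403 lower of 9728, 2487 and 4231 of 11463, and 4977 and 4476 of 11208. For median ratios and the alternatives that follow, shares of all genes are not given here. Those counts alone do not set the 78 genes apart. A common sum gave 31 and 0, 42 and 0, 73 and 2, and 1 fit over all libraries 31 and 1, 42 and 1, 59 and 4. A pseudocount of 0.1, no filter and the highest model per gene moved no count by over 1.5 times. The replicate block gave 18 and 0, 22 and 0, 65 and 7; the libraries share only a number, with correlations of deviations from -0.18 to 0.24. Leaving out 1 library gave 11 to 24 higher and 0 to 11 lower in the first comparison, 29 to 70 and 0 to 1 in the second, and 63 to 64 and 6 to 8 in the third. The 11 lower and the 70 higher came without splenic CD45+ replicate 2.

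Some log2 changes changed sign. Without globins the change was Mrps12 -0.13, Mrps18a -0.04, Mrps30 -0.10, Mrpl41 -0.22 and Mrpl35 -0.02 for splenic CD45+ against CD45- cells. It was Mrpl10 -0.00, Mrps30 -0.05 and Mrpl41 -0.19 for tumor against splenic CD45+ cells. It was Mrps12 -0.11, Mrps18c -0.36, Mrps30 -0.16 and Mrpl41 -0.41 for tumor against splenic CD45- cells. With a common sum the change was Mrps18c 0.28 for splenic CD45+ against CD45- cells. It was Mrps36 0.23 for tumor against splenic CD45+ cells. It was Mrps36 0.07, Mrps11 0.00 and Mrpl18 0.35 for tumor against splenic CD45- cells. With median ratios the change was Mrpl12 -0.42, Mrpl10 -0.32, Mrps12 -0.78, Mrps18a -0.68, Mrps30 -0.74, Mrpl58 -0.45, Mrpl41 -0.82, Mrpl33 -0.55 and Mrpl35 -0.54 for splenic CD45+ against CD45- cells. It was Mrpl10 -0.08, Mrps12 -0.51, Mrps18c -0.77, Mrps30 -0.55, Mrpl41 -0.78 and Mrpl35 -0.18 for tumor against splenic CD45- cells. Centred on the 78 genes the change was Mrpl12 -0.04, Mrps12 -0.40, Mrps18a -0.31, Mrps30 -0.38, Mrpl58 -0.10, Mrpl41 -0.50, Mrpl33 -0.15 and Mrpl35 -0.32 for splenic CD45+ against CD45- cells. It was Mrps30 -0.02 and Mrpl41 -0.17 for tumor against splenic CD45+ cells. It was Mrps12 -0.34, Mrps18c -0.58, Mrps30 -0.40, Mrpl41 -0.67 and Mrpl35 -0.18 for tumor against splenic CD45- cells. Without globin fragments the change was Mrpl12 -0.13, Mrpl10 -0.04, Mrps12 -0.49, Mrps18a -0.40, Mrps30 -0.46, Mrpl58 -0.17, Mrpl41 -0.57, Mrpl33 -0.25 and Mrpl35 -0.34 for splenic CD45+ against CD45- cells. It was Mrps30 -0.04 and Mrpl41 -0.17 for tumor against splenic CD45+ cells. It was Mrpl10 -0.03, Mrps12 -0.46, Mrps18c -0.72, Mrps30 -0.51, Mrpl41 -0.75 and Mrpl35 -0.14 for tumor against splenic CD45- cells. Leaving out 1 library gave, for splenic CD45+ against CD45- cells, Mrpl41 -0.29 to 0.21, Mrps18c -0.44 to 0.11, Mrps12 -0.03 to 0.24, Mrps18a -0.01 to 0.49, Mrps30 -0.05 to 0.28 and Mrpl35 -0.21 to 0.49. For tumor against splenic CD45+ cells it gave Mrps36 -0.26 to 0.39. Low genes rest on few fragments at this depth, and Mrpl39 was below 1 FPKM in 2 of 3 splenic CD45- libraries.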
